A study of Mus musculus with 25 samples.

Results

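Loss of the kinase WNK1 was followed here through the part of its effect on the transcriptome that is shared by unstimulated thymocytes and by thymocytes 3, 24 and 48 hr after an injection of anti-CD3ε. The effect is the genotype term of a linear model with time as a factor, fitted to 13 WNK1-deficient and 12 control libraries, that is all 25 libraries of the series. It was computed for every gene with a mean of at least 10 normalized counts, which held for 14141 of the 48795 genes in the table. All mice were Rag1-/- and carried CD2-Cre. Control mice were *Wnk1* fl/+ and kept 1 intact allele in Cre-expressing cells, whereas WNK1-deficient mice were *Wnk1* fl/fl. Mice were 7 to 8 weeks old and were either not injected (0 hr) or received 150 µg of anti-CD3ε, and each library came from the sorted Thy1.2+CD44- thymocytes, the DN3 and DN4 stages, of a separate mouse in 1 experiment. Each genotype had 3 mice at each time, with 4 WNK1-deficient mice at 0 hr. CD2-Cre acts in the lymphoid lineage from early progenitors on, so the gene had been lost before the stages that were sorted, and the controls have lost 1 allele too.

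WNK1 (with no lysine kinase 1) senses chloride and osmotic stress. Its signal runs through a pair of kinases, OXSR1 and STK39, to ion carriers of the SLC12A family. Carriers that bring chloride in with sodium, such as NKCC1 (*Slc12a2*), are switched on and those that let it out with potassium are switched off, and water follows the ions. Without RAG1 no TCRβ chain is made and thymocytes arrest before β-selection, and an antibody to CD3ε replaces the missing pre-TCR signal.

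Over the 4 times, 5394 genes differed between the genotypes by the moderated test of limma (adjusted p of at most 0.05 by Benjamini-Hochberg), or 38.1% of all genes tested. Of these, 2635 were higher in WNK1-deficient thymocytes (18.6% of genes tested) and 2759 were lower (19.5%). With all libraries scaled to a common total the split was 3196 higher and 2180 lower. Most differences were small, with a median absolute log2 difference of 0.52 among them, and 696 of the higher and 468 of the lower genes differed by at least 2-fold. The higher side held the larger values: the 99th percentile of all genes lay at 2.09 and the 1st at -1.73 on the log2 scale. Because such a large share of the transcriptome passes, the count for any group of genes is read below against 18.6% and 19.5%.

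The effect held the same sign at each of the 4 times for 2130 of the 2635 higher and 2336 of the 2759 lower genes. Among genes past the test this was 82.8%, and among all genes tested it was 39.8%. The genes were called on the same libraries, so this is a description. At each of the 4 times, every WNK1-deficient library lay above every control library for 368 genes (2.60% of genes tested) and below for 276 genes (1.95%). Over all times together, all 13 WNK1-deficient libraries lay above all 12 controls for 85 genes (0.601%) and below for 36 (0.255%). The differences at 0 hr contributed most. Their median size among genes past the test was 0.59, against 0.43 (3 hr), 0.47 (24 hr) and 0.48 (48 hr), and without the libraries of 0 hr 3215 genes passed. Of the 14110 genes tested in that fit, 1706 were higher and 1509 lower. The counts of lists without 0 hr are read below against these lower shares. Of the 5394 genes, 5352 could still be tested without 0 hr, and 3089 of them passed again in the same direction and none in the opposite one. Across the 14141 genes, the differences measured at separate times in separate mice correlated with each other, from r = 0.39 between 3 and 48 hr to r = 0.56 between 0 and 3 hr. These are descriptions across genes, which are not independent replicates.

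Sequencing lane, as numbered in the sample names, was not balanced. At 0 hr all controls were in lane 1 and all WNK1-deficient libraries in lane 2, so genotype and lane cannot be told apart there. At 48 hr the order was mostly the reverse, and at 24 hr both genotypes were spread over lanes 3 and 4. At 3 hr all 3 WNK1-deficient libraries were in lane 4, with 1 control there and the other 2 in lane 3. With lane as a covariate 5473 genes passed (38.7%), 2674 higher and 2799 lower. Of the 5394 genes, 4906 passed with and without lane in the same direction (34.7% of genes tested), and none turned its sign. Both genotypes were present at the same time within a lane in 4 cases (lane 1 at 48 hr, lane 3 at 24 hr, and lane 4 at 3 and 24 hr). Each of these cases has 1 library in an arm, and the genes past the test were chosen on the same libraries, so no test can be drawn from them.

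**Figure D1:**
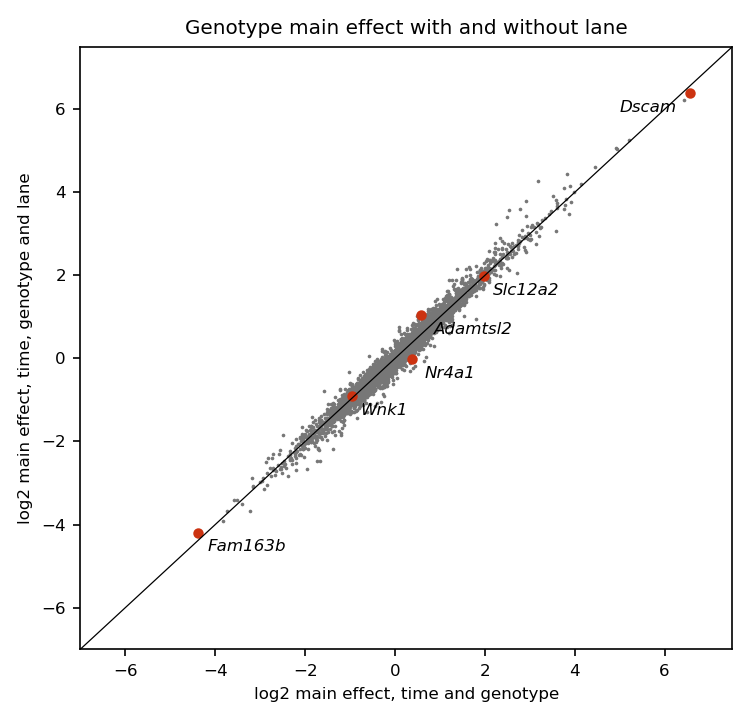
Log2 difference of each of 14141 genes (points) between WNK1-deficient and control thymocytes over the 4 times, from the model with time and genotype (horizontal) and with lane added (vertical). The line marks equal values, and named genes are in red. *Dscam* (6.57 and 6.38) and *Fam163b* (-4.39 and -4.19) lie at the ends and close to the line, and *Nr4a1* and *Adamtsl2*, whose differences had opposite signs at different times, lie off it.

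The reads counted on genes, recovered from the table, came to 22.5 to 57.3 M per library (median 36.6), with medians of 36.4 in control and 46.6 in WNK1-deficient libraries. Replicate 3 of the control mice stood further from the fitted values at 3 hr and again at 24 hr than other libraries, as did replicate 3 of the WNK1-deficient mice taken at 48 hr, and without these 3 libraries 5649 genes passed. Each of the 3 was the only library of its group in its lane, so mouse and lane cannot be told apart for them. The controls among them were also the only controls of lane 4 at 3 hr and of lane 3 at 24 hr. The lane fit and the differences within a lane rest in part on them. The markers of the thymocyte gate were high in both genotypes, with summed levels of the 12 identity genes (among them *Thy1*, *Cd3e* and *Bcl11b*) of 232554 to 552060 normalized counts in control and 173691 to 448893 in WNK1-deficient libraries.

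*Wnk1* itself (chromosome 6, 119923969 to 120038695 of GRCm38) gave 5407 to 20719 normalized counts in control libraries, with a median of 8712, and 3037 to 9046 with a median of 3967 in WNK1-deficient libraries. The genotypes did not overlap at any of the 4 times, although the ranges over all times did. The main effect was -0.95 on the log2 scale (SE 0.11, adjusted p = 4.54e-07 by limma), and the 4 within-time differences, from -0.83 to -1.05, were nearly alike (interaction adjusted p = 0.94). Within a lane and time the difference lay between -0.83 and -1.31. Only the loxP-flanked part is deleted, so the other exons still yield reads and this checks the labels in part.

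Several genes of the WNK pathway were shifted along with *Wnk1*. Of the 16 tested members of the pathway list, which also holds regulators of WNK1, 6 passed as higher and 5 as lower without WNK1. The 5 include *Wnk1* itself, whose fall follows from the deletion. *Slc12a2*, which encodes the importer NKCC1, held 66.0 to 362 normalized counts in control libraries (median 190.0) and 434 to 1188 in WNK1-deficient libraries (median 684). Every WNK1-deficient library lay above every control library, also across times, and the main effect was 1.98 on the log2 scale (SE 0.18, adjusted p = 1.45e-08). *Stk39*, for the kinase SPAK that WNK1 activates (chromosome 2, 68210445 to 68472108), had 62.8 to 836 counts in control libraries (median 159) and 271 to 1876 without WNK1 (median 472). Its genotypes were apart at 3 of the 4 times and its main effect was 1.71 (SE 0.18, adjusted p = 1.35e-07). The other kinase of this tier, *Oxsr1*, was measured at a median of 2497 counts in control and 2884 in WNK1-deficient libraries, ranges that overlapped, and differed by 0.25 (adjusted p = 0.0005).

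Of the exporters, *Slc12a7* (KCC4) held 2491 to 9358 counts in control and 1578 to 4118 in WNK1-deficient libraries, with medians of 4949 and 2773. It was apart at 3 of 4 times and lower by a log2 value of -0.78 (SE 0.10, adjusted p = 3.65e-06). *Slc12a4* (KCC1) did not pass (0.07, adjusted p = 0.55), nor did *Slc12a9*, a family member of less clear transport function (-0.06, adjusted p = 0.71). Among partners and regulators, *Cab39*, for the MO25α scaffold that activates OXSR1 and STK39, was higher (0.48) and its paralogue *Cab39l* did not pass (-0.08). *Klhl2* (0.52) and *Klhl3* (-0.57), for the adaptors through which the CUL3 ubiquitin ligase binds WNK kinases, differed in opposite directions, and *Cul3* itself did not pass (0.28, adjusted p = 0.065). The ubiquitin ligase *Nedd4l* was lower by -0.16 with an adjusted p of 0.03, and did not pass with lane (adjusted p = 0.083). *Sgk1*, a kinase that regulates WNK signaling in kidney, did not pass (0.48, adjusted p = 0.2). *Wnk3*, another WNK kinase, was near the floor in control libraries (1.84 to 17.02 counts) and stood at 29.04 to 90.4 counts in WNK1-deficient libraries, with no overlap, and reached the mean of 10 through the latter (log2 2.59, SE 0.26, adjusted p = 5.53e-08).

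**Figure D2:**
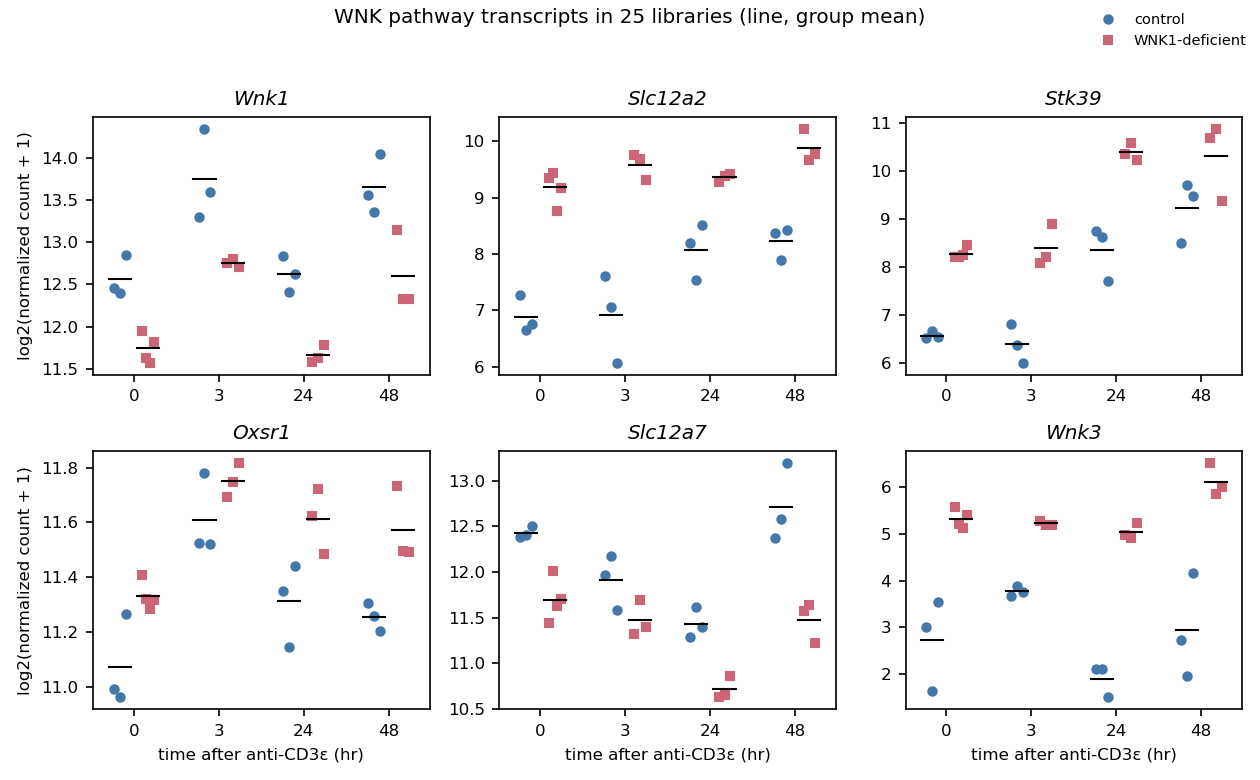
Log2(normalized count + 1) of 6 WNK pathway genes against time after anti-CD3ε for all 25 libraries, with control (circles) and WNK1-deficient (squares) libraries side by side and the group mean as a line. *Slc12a2* (log2 difference 1.98) and *Stk39* (1.71) are higher at all 4 times, *Wnk1* (-0.95) and *Slc12a7* (-0.78) are lower, *Wnk3* (2.59) shows no overlap between the genotypes, and the shift of *Oxsr1* (0.25) is small.

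Further transporters and channels moved in both directions, 12 of 34 higher and 3 lower. *Slc6a6*, for the taurine transporter, which osmotic stress induces in many cell types, was higher by 0.60 (adjusted p = 1.13e-07) and apart at all 4 times, with medians of 3805 and 6026 counts. The plasma membrane calcium pump gene *Atp2b1* (0.76) and the potassium channel gene *Kcnk6* (0.92) were higher, and *Kcnab2*, a cytoplasmic subunit of voltage-gated potassium channels, was lower (-0.81). The channel and transporter count fell to 7 higher without the 24 hr libraries.

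The 12 largest increases and 12 largest decreases were taken where the mean reached 100 and the genotypes were apart within each of the 4 times, so that separation is a property of the choice. *Dscam*, for an adhesion molecule of the nervous system (chromosome 16, 96587452 to 97171113), held 0 to 38.3 normalized counts in control libraries (median 3.64) and 142 to 677 in WNK1-deficient libraries (median 464). No WNK1-deficient library came near the controls, and the main effect was 6.57 on the log2(value + 1) scale (SE 0.38, adjusted p = 1.17e-11). For a gene this low the size depends on the added constant, and with 5 in place of 1 it was 5.49. *Wnt10b*, a WNT ligand, had 0 to 41.9 counts in control (median 7.55) and 149 to 890.0 in WNK1-deficient libraries (median 372), again without overlap (5.21, SE 0.29). *Podxl* (3.90), for a sialomucin that keeps cell surfaces apart, *Npnt* (3.48), for an integrin α8β1 ligand of the matrix, and *Fscn1* (3.87), for the actin-bundling protein fascin, were likewise above every control library at any time. The RAS-like GTPase gene *Mras* (3.09) and *Map1a* (2.88), for a microtubule-associated protein, were so too. The other genes of this set were apart at each time but not across times. They were the chemokine gene *Ccl5* (3.78), the chemokine receptor gene *Cxcr5* (3.77), *Syt11*, for a synaptotagmin (3.60), *Lad1*, for a basement membrane filament protein (3.25), and *Asb2*, for a ubiquitin ligase adaptor that targets filamins (2.95). Adjusted p values of these 12 genes lay at or below 1.89e-06. Replicate 1 of the WNK1-deficient mice was high for *Podxl* at 3 hr (1525 counts, against 189 and 280) and at 48 hr (1308, against 157 and 209). At 3 hr it was high for *Ccl5* too (521, against 80.0 and 141).

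*Fam163b* (chromosome 2, 27110379 to 27142477) had 21.02 to 5678 counts in control libraries (median 993) and 1.31 to 104 in WNK1-deficient libraries (median 53.5). The ranges over all times overlapped, but the genotypes were apart at each time and the main effect was -4.39 (SE 0.48, adjusted p = 1.85e-07). *Ogdhl*, for a paralogue of oxoglutarate dehydrogenase, stood at medians of 629 and 39.4 (log2 -3.74), and *Arhgef10l*, for a guanine nucleotide exchange factor, at 1387 and 405 (-3.15). *Pld4*, for a lysosomal nuclease that degrades single-stranded nucleic acids, held 838 to 21317 counts in control and 239.6 to 3491 in WNK1-deficient libraries and had the smallest standard error of this set (-2.22, SE 0.14, adjusted p = 4.76e-11). The orphan receptor gene *Gpr179* (-2.47) and *Tdrkh*, for a protein of the piRNA pathway (-2.16), were below every control library at any time. *Rps6kl1* (-2.94), a kinase-like gene, *Scn4b* (-2.52), for a sodium channel β subunit, *Hdac11* (-2.34), for a histone deacetylase, *Padi4* (-2.33), for an enzyme that converts arginine to citrulline, *Espnl* (-2.31), of the espin family of actin bundlers, and *Ccdc9b* (-2.17) completed the 12 genes. Adjusted p values were at most 1.57e-06.

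**Figure D3:**
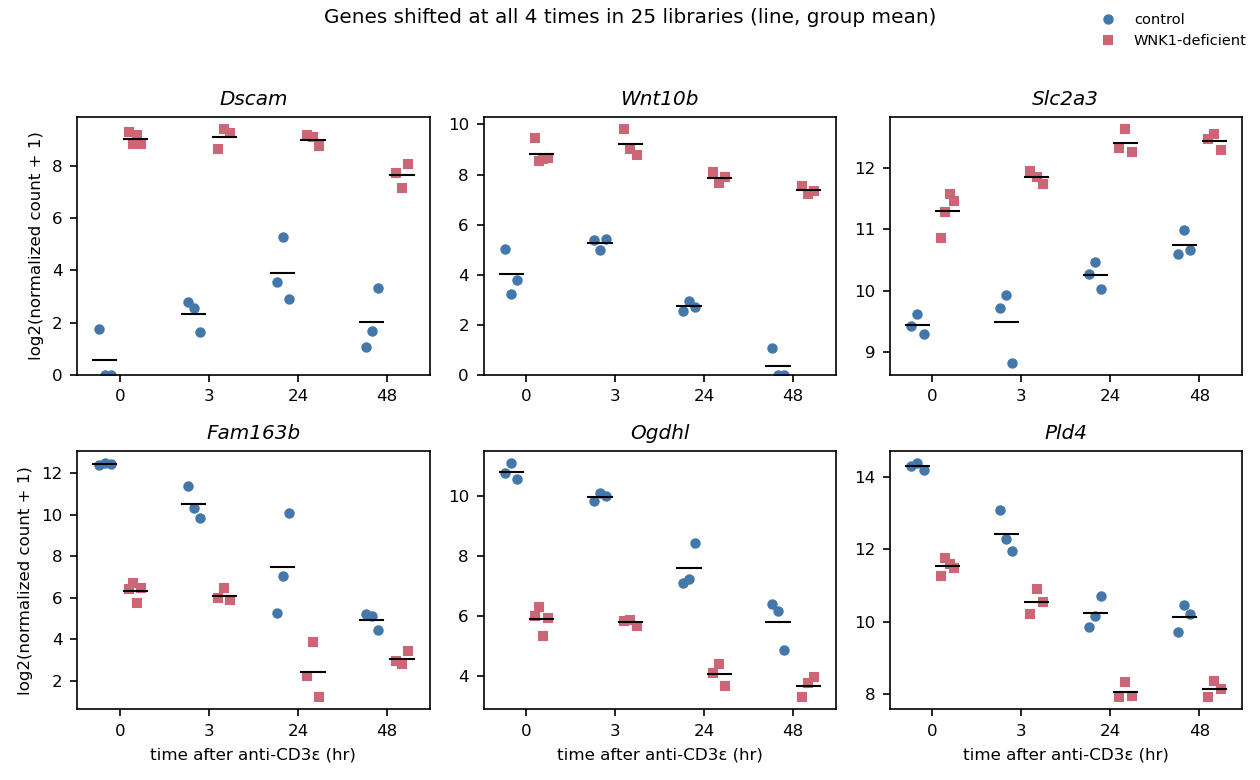
Log2(normalized count + 1) of 6 genes against time after anti-CD3ε for all 25 libraries, control (circles) and WNK1-deficient (squares), with group means as lines. *Dscam*, *Wnt10b* and *Slc2a3* are higher and *Fam163b*, *Ogdhl* and *Pld4* lower without WNK1 at each time, with no overlap within a time.

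Other genes were shifted by nearly the same amount at every time. *Dnajc12*, for a cochaperone, held 56.9 to 177 counts in control (median 105) and 229 to 567 in WNK1-deficient libraries (median 422), with within-time differences from 1.74 to 1.89 on the log2 scale (main effect 1.82, SE 0.12). *Fzd7*, a WNT receptor gene, differed by 1.25 to 1.29 at the 4 times while its level in both genotypes changed with time. Its difference at 3 hr rests on uneven controls, with 456 and 514 counts in replicates 1 and 2. Replicate 3, which stood apart, held 115, and the WNK1-deficient libraries of 3 hr held 698 to 795. *Galc* (1.08), for the lysosomal enzyme galactosylceramidase, and *Hacd2* (1.15), of very long chain fatty acid synthesis, were higher in every WNK1-deficient library than in any control library. *Msrb2*, for a mitochondrial methionine sulfoxide reductase, was lower (-1.02). Evenness was the criterion by which these 5 genes were taken, and it is given as a description.

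**Figure D4:**
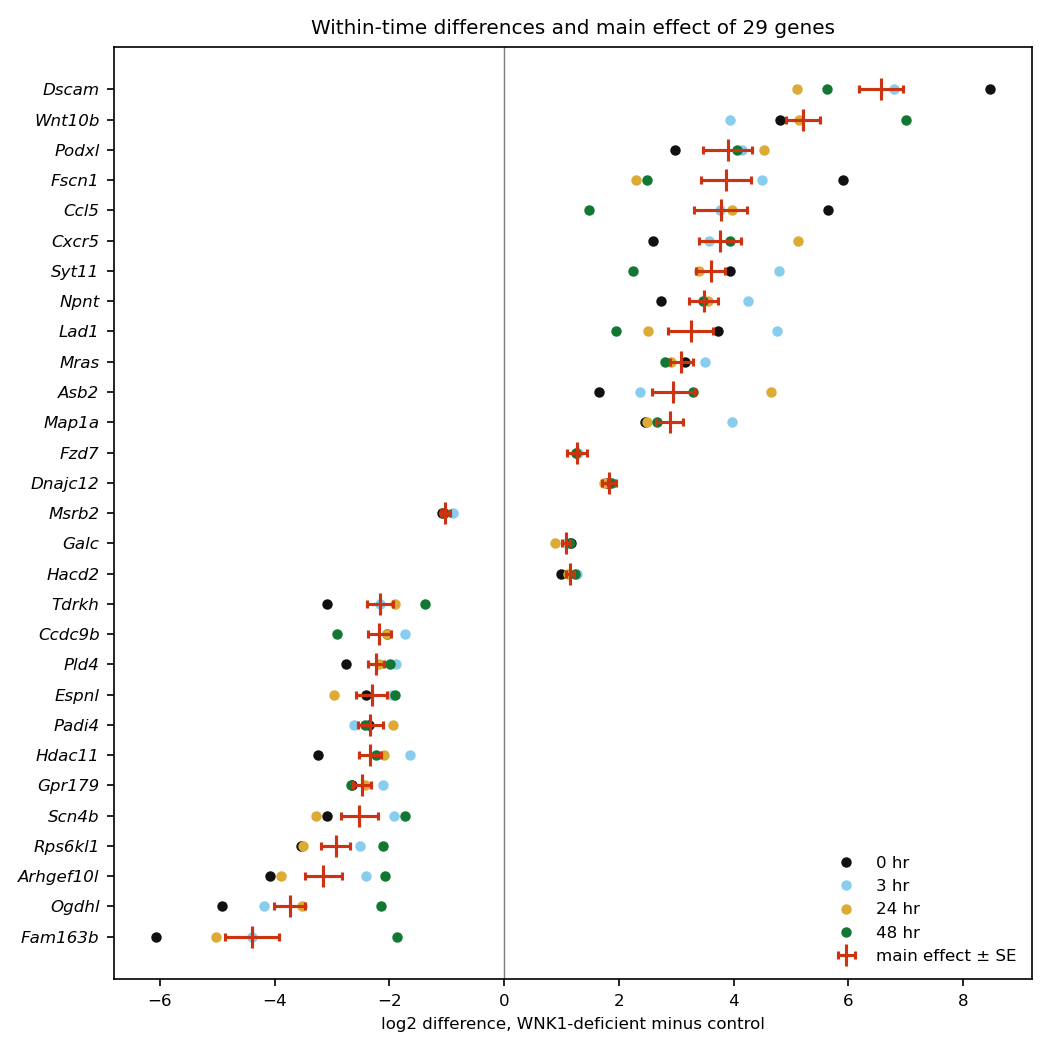
Log2 difference between WNK1-deficient and control thymocytes at 0, 3, 24 and 48 hr (points) and main effect with its standard error (red) for the 12 largest increases, the 5 most even genes and the 12 largest decreases. All points of the increases lie right of 0 and all points of the decreases left of it. The 4 points of *Fzd7* and *Dnajc12* coincide within 0.15, whereas those of *Fam163b* run from -6.07 at 0 hr to -1.86 at 48 hr. The 3 hr point of *Fzd7* averages uneven controls (115 to 514 counts).

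The most abundant genes with a shift at every time included *Lck*, the proximal kinase of the TCR and pre-TCR. It held 43474 to 94937 counts in control (median 52711) and 23343 to 53417 in WNK1-deficient libraries (median 36922), and was lower by -0.73 (SE 0.09, adjusted p = 1.98e-06). *Serinc3*, for a membrane protein that scrambles phospholipids, was higher by 1.10 (medians 18670 and 39452). *Rps10* and *Rps27*, also among them, encode proteins of the small ribosomal subunit.

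Ribosomal protein genes were lower nearly throughout the list. Of 80 tested, 70 passed as lower and none as higher, and the estimates of all 80 lay below 0, from -1.15 (*Rpl34*) to -0.04. Their median difference was -0.42, against 0.00 over all genes, and within the times it was -0.64 (0 hr), -0.41 (3 hr), -0.24 (24 hr) and -0.24 (48 hr). Together they made up 4.85 to 11.2% of all counts in control libraries and 3.77 to 6.53% in WNK1-deficient libraries. *Rps10* held 23497 to 56728 counts in control (median 32819) and 14176 to 30087 in WNK1-deficient libraries (median 24416), apart at each time, with a main effect of -0.63 (SE 0.10). *Rps27* (-0.60) and *Rpl23* (-0.51) were also apart at all 4 times. *Rpl29* (-0.63), *Rpl37a* (-0.60) and *Rpl17* (-0.58) were apart at 3. The count dropped to 42 lower genes under quantile normalization and to 35 without the 0 hr libraries. Many of these genes have processed pseudogenes of near-identical sequence, and how the counting divided reads among them is not known gene by gene.

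Transcripts of this family share a C followed by a run of pyrimidines at their first bases, the terminal oligopyrimidine tract that ties their translation to growth signals. Those of *Rps10* and *Rps27* are shown, 15 bases before to 15 after the start annotated by RefSeq on the coding strand of GRCm38.p6, with the tract in capitals: *Rps10* from chr17:27635230-27635259 on the minus strand and *Rps27* from chr3:90213634-90213663 on the minus strand.
Rps10: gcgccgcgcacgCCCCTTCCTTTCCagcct
Rps27: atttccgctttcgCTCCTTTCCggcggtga
A C with at least 5 further C or T bases lay within 10 bases of the start in 31 of 59 ribosomal protein genes with a promoter in the table (52.5%), and in 19.3% of all 9740 tested genes with one. Among all genes with a promoter, the tract was found in 19.8% of those higher and 19.3% of those lower without WNK1.

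Nuclear genes of the respiratory chain and ATP synthase were lower too, 39 of 75 with none higher (median -0.23, lane included 44). The ATP synthase subunit gene *Atp5j2* held 2872 to 7275 counts in control (median 5103) and 1852 to 4135 in WNK1-deficient libraries (median 3405), and differed by -0.60 (SE 0.09). The complex I gene *Ndufa11* differed by -0.52 and the complex IV gene *Cox6b1* by -0.42. Genes for proteins of the mitochondrial ribosome were lower for 28 of 76 and higher for 1, among the lower *Mrps21* (-0.57). Without the 0 hr libraries 17 respiratory chain genes and 11 of these were lower. The genes encoded by mitochondrial DNA went the other way: 6 of 13 were higher and none lower, with *mt-Co3* (1.55), *mt-Atp8* (1.37), *mt-Nd3* (0.80) and *mt-Atp6* (0.72) first. Their levels varied widely between mice, with 762 to 12872 counts of *mt-Co3* in control and 4268 to 25243 in WNK1-deficient libraries, ranges that overlapped. Without the 0 hr libraries 1 of the 13 passed, and without those of 48 hr 2 did. Libraries were selected for polyA, and the part of polyadenylation in the levels of mitochondrial transcripts was not tested. Among the other genes of protein synthesis, 12 of 49 translation factors were lower and none higher. Of 67 ribosome biogenesis genes 7 were lower and 4 higher, below the background on both sides, the lower including the methyltransferase gene *Emg1* (-0.75), whose WNK1-deficient libraries all lay under the lowest control. Genes for proteasome subunits were lower for 12 of 36 and higher for none. Without 0 hr, genes for 5 translation factors and 4 proteasome subunits were lower. Both counts were near the share of all genes lower in that fit (1509 of 14110).

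Genes of sterol and fatty acid synthesis were lower for 18 of 34 and higher for 3, with a median of -0.33. *Mvk*, for mevalonate kinase (chromosome 5, 114444264 to 114460591), held 339 to 1019.7 counts in control (median 698) and 206 to 455 in WNK1-deficient libraries (median 319), apart at every time (-1.03, SE 0.10, adjusted p = 4.23e-08). *Srebf2*, for the transcription factor that drives the pathway, was lower by -0.50, with medians of 13273 and 9039. *Tm7sf2*, which codes for sterol C14 reductase, was higher by 0.66. The number of lower genes was 9 without 0 hr and 11 without 24 hr.

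The promoters of this pathway are known for binding sites of SREBP next to sites of NF-Y, whose core is CCAAT. The 250 bases before the annotated start are shown for *Mvk* (chr5:114444019-114444268, plus strand) and *Srebf2* (chr15:82147019-82147268, plus strand) of GRCm38.p6 from RefSeq, with CCAAT, or ATTGG where it is on the other strand, in capitals.
Mvk: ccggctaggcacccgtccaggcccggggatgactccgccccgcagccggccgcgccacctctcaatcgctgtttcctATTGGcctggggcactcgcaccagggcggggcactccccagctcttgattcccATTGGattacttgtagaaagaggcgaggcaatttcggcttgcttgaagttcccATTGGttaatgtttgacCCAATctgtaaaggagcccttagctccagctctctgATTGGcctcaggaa
Srebf2: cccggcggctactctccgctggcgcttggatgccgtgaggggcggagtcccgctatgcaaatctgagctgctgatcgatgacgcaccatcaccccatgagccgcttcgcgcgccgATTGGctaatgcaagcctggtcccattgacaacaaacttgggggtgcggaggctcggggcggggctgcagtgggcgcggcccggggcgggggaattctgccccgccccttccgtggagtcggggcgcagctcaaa
CCAAT was found on either strand in the 300 bases from 250 before to 50 after the start in 21 of 25 genes of the list with a promoter in the table (84.0%), the 11 that were lower among them, and in 43.4% of all tested genes with one. Over all genes the share was 41.7% among those higher and 44.0% among those lower without WNK1, close to that of all genes.

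In glycolysis and glucose uptake 9 of 32 genes were higher and 5 lower. *Slc2a3*, for the glucose transporter GLUT3, held 450.3 to 2017 counts in control (median 1008) and 1851 to 6342 in WNK1-deficient libraries (median 3957). Within each time the genotypes were apart, and the main effect of 2.00 (SE 0.11, adjusted p = 9.30e-12) was 4.01-fold. *Pdk1* (0.54), for a kinase that limits pyruvate entry into mitochondria, was higher, and the aldolase gene *Aldoc* (-1.50) and the lactate dehydrogenase gene *Ldhb* (-0.93) were lower. Genes of the lysosome passed in both directions, 15 of 58 higher and 12 lower. The number lower was 4 without 0 hr. Among the higher were the transcription factor genes *Tfeb* (2.69) and *Tfe3* (0.76), which control lysosome formation, *Fnip1* (0.60), for a folliculin partner that acts on both through the RAG GTPases, and *Atp6v0a1* (1.90), for a subunit of the proton pump. *Tfeb* held 24.6 to 323 counts in control and 309 to 1099 in WNK1-deficient libraries. It was apart at all 4 times, although its difference narrowed from 3.82 at 0 hr to 1.48 at 48 hr (interaction adjusted p = 0.0338).

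**Figure D5:**
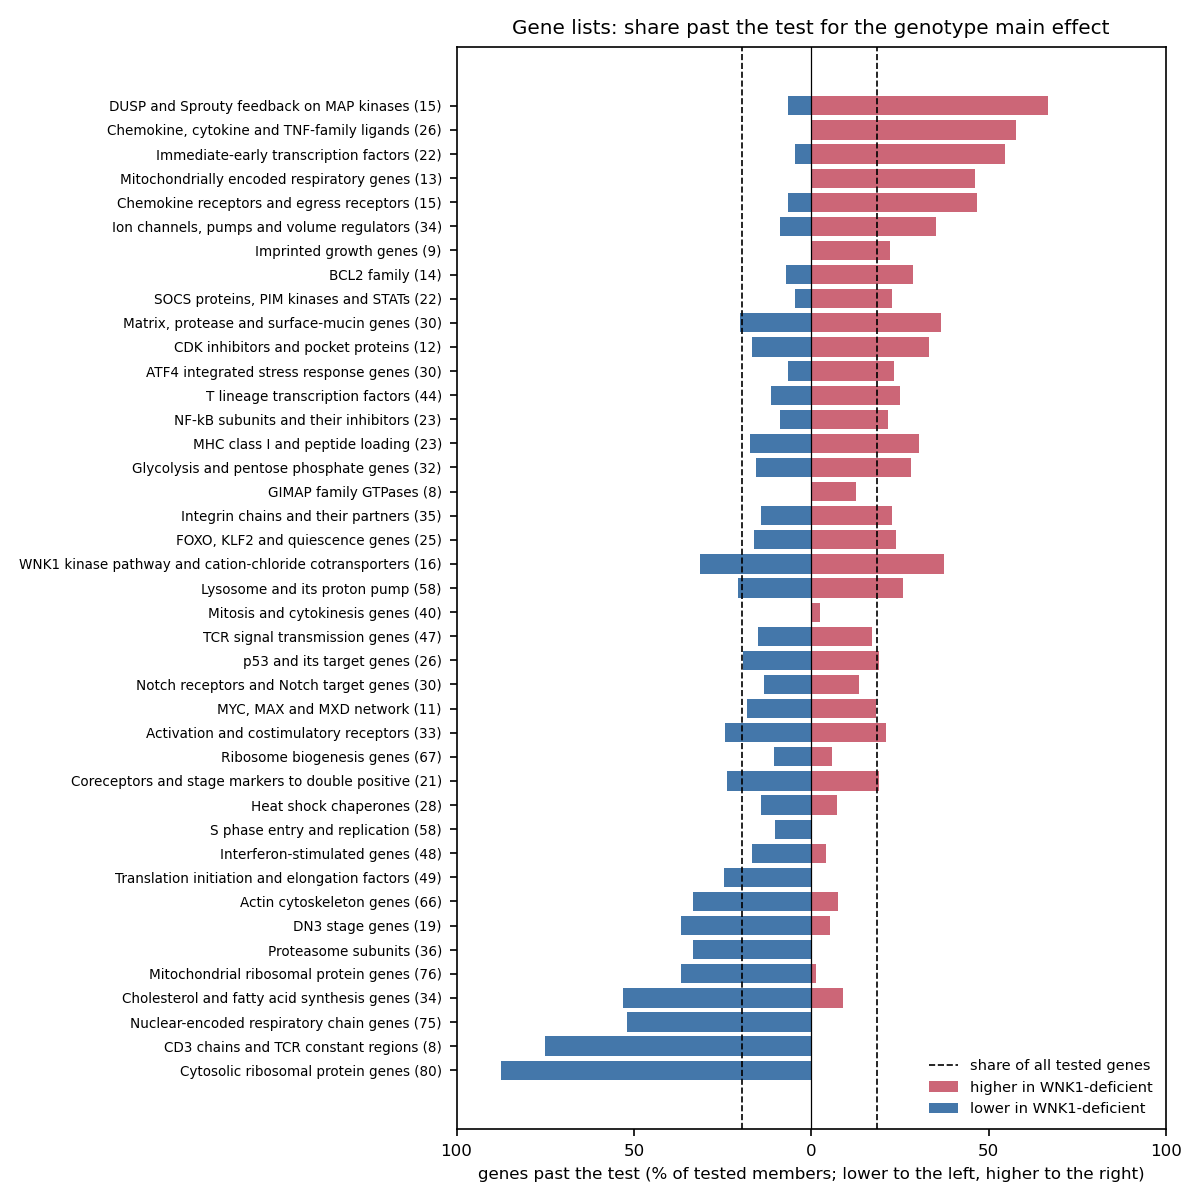
Share of the tested genes of each of 41 lists (number tested in brackets) that were higher (right, red) or lower (left, blue) in WNK1-deficient thymocytes over the 4 times. Dashed lines mark the share of all tested genes, 18.6% higher and 19.5% lower. Cytosolic ribosomal protein genes (70 of 80), CD3 chains (6 of 8), sterol and fatty acid synthesis genes (18 of 34) and respiratory chain genes (39 of 75) reach furthest to the left, and feedback inhibitors of MAP kinases (10 of 15) and ligands (15 of 26) furthest to the right.

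Genes for inhibitors of the MAP kinase pathway were higher for 10 of 15 and lower for 1. Without 0 hr 6 were higher. *Spry2* held 15.7 to 304 counts in control and 108 to 914 in WNK1-deficient libraries (medians 66.5 and 360) and was higher by 2.04 (SE 0.32), while *Spry4* (1.58) and the phosphatase genes *Dusp4* (1.26) and *Dusp6* (1.23) followed. Immediate-early transcription factor genes were higher for 12 of 22 and lower for 1, with *Batf* (1.13) and *Nr4a2* (1.25) among the higher, *Ier5* (0.98), an early response regulator, beside them, and *Srf*, for serum response factor, lower (-0.48). Among the 12 higher, *Atf3* reached a mean of 10 without WNK1 but not in controls. Without the 0 hr libraries 4 of the genes were higher, and 5 of the 22 showed a genotype by time interaction. The median difference of the list was 1.19 at 0 hr and -0.16 at 48 hr. NF-κB genes passed as higher for 5 of 23, near the background, with *Rel* (1.10) apart at all times, *Birc3* (0.64), for an inhibitor of apoptosis, and *Relb* (1.34) and *Bcl3* (2.33) most different at 0 hr. *Cd69*, an early activation marker, was higher by 2.49 over the 4 times and apart at each, and most so at 0 hr (5.60).

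Ligands were higher for 15 of 26 and lower for none, the median of the list being 0.75. *Tnfsf4*, for OX40 ligand, held 2.34 to 27.1 counts in control (median 15.9) and 28.6 to 102 in WNK1-deficient libraries (median 54.9) with no overlap (2.21, SE 0.27). The cytokine gene *Lif* (2.05) and the chemokine gene *Cxcl9* (1.75) were higher, as was *Ccl5*. Of chemokine and egress receptors 7 of 15 were higher, including *Ccr9* (0.78), the receptor for the thymic chemokine CCL25, and 1 was lower, the sphingosine phosphate receptor gene *S1pr2* (-0.53). The number higher was 4 without 3 hr and 4 without 24 hr.

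Transcripts for components of the receptor itself were lower. Of 8 genes for CD3 chains and receptor constant chains, 6 were lower and none higher (median -0.49). *Cd3g* held 15906 to 93855 counts in control (median 32660) and 12552 to 47881 in WNK1-deficient libraries (median 26769), ranges that overlapped widely, and differed by -0.57 (SE 0.11, adjusted p = 0.000371). *Cd247*, for CD3ζ, differed by -0.45 and *Trbc2*, for a TCRβ constant region, by -0.42. *Ptcra*, for the pre-TCRα chain, differed by -2.38 with a wide error (SE 0.61), and by -1.95 (0 hr), -0.88 (3 hr), -5.62 (24 hr) and -1.13 (48 hr). Replicate 3, which stood apart in both groups, held 2344 counts in the 24 hr controls (others 59.2 and 115). It held 574 in the 48 hr WNK1-deficient libraries (others 18.2 and 22.5). As each library was left out the main effect of *Ptcra* ran from -2.76 to -1.89. Genes of the DN3 stage were lower for 7 of 19 and higher for 1. In RNA from a sorted population, fewer cells of a stage and less RNA per cell cannot be told apart. Genes of TCR signal transmission passed in both directions, 8 of 47 higher and 7 lower, near the background, with *Ppp3ca*, for the catalytic subunit of calcineurin, higher by 1.11 and apart at every time. Of Notch receptors and targets 4 of 30 were higher and 4 lower, below the background on both sides, with *Notch3* (-1.44), *Dtx1* (-1.34) and *Heyl* (-1.38) among the lower. *Notch3* held 397, 759 and 6107 counts in the 24 hr controls, the last in the library that stood apart. Transcription factors of the T lineage were higher for 11 of 44 and lower for 5, and *Zbtb7b* among the 11 reached a mean of 10 only without WNK1. Without 0 hr 6 were higher. *Sox4* (0.74, SE 0.07) was higher and *Ets2* (-1.40), *Lef1* (-0.94) and *Ets1* (-0.45) were lower. For *Ets2* every WNK1-deficient library (569 to 1466 counts) was below every control library (1717 to 5186).

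Genes of the actin cytoskeleton were lower for 22 of 66 and higher for 5. *Actn1*, for the crosslinker α-actinin-1, had 9819 to 22797 counts in control (median 13784) and 4036 to 9783 in WNK1-deficient libraries (median 7830), without overlap (-1.01, SE 0.10, adjusted p = 5.94e-08). *Arhgdib*, for a GTPase inhibitor of leukocytes, differed by -0.83 and *Rac1* by -0.30, both apart at each time, whereas *Fscn1* was among the 5 that were higher. The number lower was 12 under quantile normalization, 11 without 0 hr and 9 without 48 hr. Genes of integrins and their partners passed in both directions, 8 of 35 higher and 5 lower, near the background. *Rap2a* (1.43), *Itgav* (0.82) and *Icam1* (0.77) were higher, and *Itga5* was lower (-1.06), at medians of 1139 and 615 counts. Matrix and surface genes were higher for 11 of 30 and lower for 6. Among the 11, 4 reached a mean of 10 without WNK1 but not in controls, *Sdc4* among them. *Sdc4*, for the heparan sulfate proteoglycan syndecan-4, held 2.47 to 32.5 counts in control and 43.8 to 304 in WNK1-deficient libraries (3.92, SE 0.27), and *Mmp15*, for a membrane-bound matrix metalloprotease, was lower (-1.06).

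The cell cycle gave little that was common to the 4 times. Of 58 S phase genes 6 were lower and none higher, under the background of 19.5%, with *Uhrf1* (-0.59), *Prim2* (-0.44) and *Mcm2* (-0.41) among them. Their number depended on the fit and was 19 with lane, 0 without 0 hr, 1 without 24 hr and 10 without 48 hr. The median difference of the list was 0.24 at 0 hr and -0.61 at 24 hr. Of 40 mitotic genes 1 passed, *Ect2*, for an exchange factor of cytokinesis (0.54, adjusted p = 0.0444), and it did not pass with lane (adjusted p = 0.18). Among inhibitors of cell cycle kinases 4 of 12 were higher and 2 lower, *Cdkn1c* the first of them (1.47, SE 0.18), and the antiproliferative gene *Btg2* was lower (-0.72). In the BCL2 family, 4 of 14 were higher and 1 lower. Both *Bbc3* (1.36) and *Pmaip1* (0.72), which promote cell death as PUMA and NOXA, and *Bcl2* (0.95) and *Bcl2l1* (0.41), which oppose it, were higher. *Bcl2* stood at medians of 4484 counts in control and 8751 in WNK1-deficient libraries.

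Interferon-stimulated genes were lower for 8 of 48 and higher for 2, below the background. The number lower was 19 with lane and 16 without the 3 libraries that stood apart. *Zbp1*, for a nucleic acid sensor, was lower by -1.12. Of MHC class I genes and peptide-loading genes 7 of 23 were higher and 4 lower, with *H2-Q6* (1.88) and *H2-Q7* (0.82) higher and the immunoproteasome gene *Psmb8* lower (-0.52). The number higher was 4 without 0 hr and 12 when all libraries were scaled to a common total. The H2-Q genes are near-identical copies of one another, and the division of reads between them is uncertain. Among heat shock genes 2 of 28 were higher and 4 lower, below the background on both sides. The cochaperone gene *Bag3* was lower by most (-1.56, SE 0.13, medians 389 and 155). The amino acid transporter gene *Slc38a2*, of the integrated stress response list of which 7 of 30 were higher and 2 lower, differed by 0.63.

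Markers of other cell types moved with genotype as well. Of 13 tested markers of NK and innate lymphoid cells 7 were higher and none lower, with *Gzmb* (3.51), *Klrg1* (2.38), *Rora* (2.03) and *Klrk1* (1.99) first. *Gzmb* was uneven between the WNK1-deficient mice, with 1804, 65.7 and 124 counts at 3 hr and 1339, 167 and 43.1 at 48 hr. The last lay below a control of 48 hr at 46.1. *Rora* at 3 hr held 1286, 320 and 173 counts in these mice. Of the 13 genes, 5 reached a mean of 10 in WNK1-deficient libraries and not in controls, *Klrg1* and *Klrk1* among them, and could hardly pass as lower. Of the 8 that reached it in both genotypes 3 were higher. The summed level of the 15 genes of that list was 7040.0 to 30766 counts in control and 14237 to 52591 in WNK1-deficient libraries. The defining markers were low, *Klrk1* at medians of 2.04 and 5.92 and *Klrg1* at 0 and 9.44, and the latter was at 0 in 7 control libraries. The markers of this list that made up most of the sum, *Gzma* and *Nkg7*, were expressed in both genotypes. Without the 24 hr libraries 3 of the 13 passed. Of 12 tested myeloid and dendritic cell markers 4 were higher and none lower, among them *Cd74* (1.47) and *H2-Aa* (0.92), of the MHC class II pathway, and the summed level of 22 genes ran from 639 to 5034 in control and 1163 to 8084 in WNK1-deficient libraries. Of 6 tested B cell markers 3 were lower and 1 higher, with *Cd79b* (-1.28) and *Pou2af1* (-1.11) lower, while the defining genes *Ms4a1* and *Pax5* had a median of 0 in both genotypes. The 1 higher, *Cd22*, reached a mean of 10 without WNK1 but not in controls, and could hardly pass as lower. Of 9 tested epithelial and stromal markers 4 were higher and 1 lower, and *Pdgfrb* (1.19) held medians of 3584 and 9827 counts. *Pecam1* (6611 and 7406), *Ly75* (2033 and 2164) and *Epcam* (1112 and 1950) were abundant in both genotypes too, while *Pdgfra* and *Krt14* were at a median of 0. Sums of the list ran from 11594 to 25203 in control and 20245 to 30052 in WNK1-deficient libraries. No erythroid marker of 3 passed. Of 8 tested markers of early progenitors (DN1 and DN2) 2 were higher and 1 lower, and 4 were higher without the 3 hr libraries. Their summed level ran from 1174 to 8434 in control (median 2073) and 2474 to 17091 in WNK1-deficient libraries (median 3359), the highest being a library of 3 hr. The part of other cells in the differences of ligands, chemokine receptors and matrix genes was not tested.

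The term for genotype and time together passed for 208 genes (1.47% of genes tested, 2473 at an unadjusted p under 0.05). Of the 208, 119 also passed for the main effect, which 38.1% of all genes tested did. The main effect averages over the times, so passing both tests does not mean that the effect was common to all 4. Among the 208, 30 had within-time differences of at least 1 on the log2 scale in both directions. *Nr4a1*, for the receptor-induced factor NUR77, differed by 3.66 (0 hr), 0.16 (3 hr), -1.39 (24 hr) and -1.38 (48 hr), and its main effect did not pass (0.38, adjusted p = 0.55). *Cblb*, for a ubiquitin ligase that restrains antigen receptors, ran from -1.39 at 0 hr to 1.00 at 24 hr. *Adamtsl2* (-2.02 at 0 hr to 2.60 at 24 hr) and the fractalkine receptor gene *Cx3cr1* (-1.22 to 2.31 at 48 hr) were first lower and then higher, and the cadherin gene *Cdh24* (1.60 to -1.11) and the class I gene *H2-Q2* (3.08 to -2.07 at 24 hr) first higher and then lower. The number of genes past the term for genotype and time, 208 with all libraries, was sensitive to single libraries. It ran from 105 to 620 as each was left out, and was 11 without the 0 hr libraries and 107 with lane.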

How the data were processed

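RNA was sequenced from sorted thymocytes of 25 mice in 8 groups, with 75-base single-end reads from a stranded polyA library kit. The signal values deposited by the authors are RSEM 1.2.31 gene counts divided by a DESeq2 1.18.1 size factor, after Trimmomatic 0.36 and STAR 2.5.2a alignment to GRCm38 with Ensembl release 86. Dividing by the smallest step returned whole reads in all 25 libraries within 0.001, which says little for 2 libraries whose step is near 1. Here log2(value + 1) was fitted with time and genotype in limma 3.58.1 (trended prior, R 4.3.3) over 14141 genes with a mean of at least 10, and p-values were adjusted over all of them by Benjamini-Hochberg. P-values measure the spread between mice of 1 experiment. For the main effect the residuals also hold any change of the genotype difference with time. The average of the 4 within-time differences, fitted with group means, passed for 5717 genes. edgeR 4.0.16 and DESeq2 1.42.0 were run on the recovered reads as alternatives, beside other scalings, filters, pseudocounts, a lane covariate and left-out libraries and times. The leave-one-out of the lane fit was added after seeing the data.

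The members and the 48 gene lists were chosen with earlier results of these data known. Named genes were the WNK pathway list, the 12 largest increases and decreases and the 5 most even genes among those apart at each time, the 5 of highest mean, up to 4 genes of each list, and 6 genes with opposite signs, and some of these are not reported here. Symbols and sequences came from RefSeq (GRCm38.p6).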

Additional observations from a re-analysis of the deposited data

Results flagged for a closer look

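Among the 4 WNK1-deficient mice at 0 hr, a mouse lay far from the others for 13 of 146 genes, where chance gives about 1 in 20 groups. It was not always the same mouse, being replicate 1 for 8 genes, replicate 4 for 4 and replicate 2 for 1. The value is the gap to the nearest mouse divided by the range, past the critical value of Dixon. It was 0.852 for *Stk39*, 0.898 for *Wnt10b*, 0.919 for *Fscn1*, 0.835 for *Npnt*, 0.834 for *Rps6kl1*, 0.881 for *Padi4* and 0.857 for *Nr4a2*. It was 0.963 for *Uhrf1*, 0.845 for *Ccr9*, 0.894 for *Tm7sf2*, 0.867 for *Rora*, 0.861 for *Klrg1* and 0.861 for *Pou2af1*.

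The difference between genotypes changed with time for 13 of the genes named, by limma's test of genotype and time together with Benjamini-Hochberg adjustment. The adjusted p was 0.0225 for *Wnt10b*, 0.0247 for *Ogdhl*, 0.0338 for *Tfeb*, 8.76e-06 for *Nr4a1* and 8.76e-06 for *Cd69*. It was 0.0026 for *Cblb*, 0.00462 for *Adamtsl2*, 0.00841 for *Cdh24*, 0.0117 for *Cx3cr1* and 0.0119 for *H2-Q2*. For genes of NF-κB and the early response it was 0.00136 for *Relb*, 0.00417 for *Bcl3* and 0.00103 for *Ier5*.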

How the results depend on the processing

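The number of genes past the test of genotype stayed within 1.5 times of 5394 under every alternative run except 2. It was 3215 (1706 higher, 1509 lower) without the 0 hr libraries, and 209 (146 higher, 63 lower) when a change of more than 2-fold was tested. As each library was left out it ran from 4967 to 5525 (2451 to 2706 higher, 2498 to 2829 lower), and with lane from 4954 to 5616. The 208 genes whose difference changed with time were less stable: 107 with lane, 11 without 0 hr, 466 without the 3 libraries that stood apart, 1045 with DESeq2, and 105 to 620 as each library was left out. Of the genes named, signs turned for *Slc12a9* (0.00395 with lane, 0.0677 without 48 hr, and -0.107 to 0.00904 as each library was left out) and *Nr4a1* (-0.0111 with lane, -0.87 without 0 hr, -0.18 with edgeR). They also turned for *Cdh24* (-0.0821 without 0 hr) and *Adamtsl2* (-0.0538 without 24 hr). The causes were not tested. Depth limits genes near 0 counts, whose fold depends on the pseudocount.

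Replicate numbers did not pair mice, with correlations from -0.20 to 0.20 between same-numbered libraries. With the number as a replicate block 4992 genes passed for genotype (2457 higher, 2535 lower) and 113 for the change with time.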
